A study of Mus musculus with 40 samples.

Results

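The nuclear genes for the subunits of the mitochondrial respiratory chain and ATP synthase were followed through a mouse regulatory T cell (Treg) study of the receptor neuropilin-1 and its ligand semaphorin-4a. Members were taken by symbol: genes starting with Ndufa, Ndufb, Ndufc, Ndufs, Ndufv, Uqcr, Cox4 to Cox8 or Atp5, and Sdha to Sdhd, without the assembly factors Ndufaf and Uqcc. Each gene was represented by its probe set with the highest mean, among probe sets that name 1 gene. This gave 82 of 18194 genes on the arrays of sorted T cells and 80 of 17097 genes on the arrays of the ligand experiment, with 77 genes on both. By complex the sorted arrays held 36 members of complex I, 4 of complex II, 8 of complex III, 17 of complex IV and 17 of complex V, and the ligand arrays held 35, 4, 7, 17 and 17. Ndufa4 is counted under complex I by its symbol, although its protein is now placed in complex IV. Ndufs5-ps, a pseudogene symbol on the ligand arrays, was kept because the rule takes it.

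The sorted experiment has 8 arrays of cells from Foxp3GFP reporter mice on a C57Bl/6 background. Treg were gated as CD4+ CD45RBlow GFP+ and conventional T cells as CD45RBhi GFP-, all kept for 48 h in culture, with 3 arrays of Treg activated by anti-CD3 and anti-CD28, 3 of unstimulated (resting) Treg and 2 of unstimulated conventional T cells. The ligand experiment has 32 arrays of CD4+ CD45RBlo Foxp3-YFP+ Treg from spleen and peripheral lymph nodes. The mice were WT (Foxp3-YFPiCre) or KO (Nrp fl/fl x Foxp3-YFP-iCre), so both genotypes carry the Foxp3-driven Cre. All these cells received anti-CD3 (1 µg/mL), anti-CD28 (2 µg/mL) and IL-2 (100 U/mL), with 10 µg/mL of either Sema4a-Ig, the ligand fused to an antibody tail, or IgG1 as control. There are 8 pairs of a Sema4a-Ig and an IgG1 array for each genotype, and the array of WT with Sema4a-Ig, replicate 2, has a KO genotype label against its title, by which it was grouped. Whether replicates are separate animals or cultures is not in the labels, so each p-value reflects the scatter of these samples only, and that scatter may be technical.

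The respiratory chain passes electrons from NADH (complex I) and succinate (complex II) through ubiquinone to complex III, cytochrome c and complex IV, and complex V uses the resulting proton gradient to make ATP. Most subunits are encoded in the nucleus, with a small core set encoded in mitochondrial DNA. Treg are known for leaning on mitochondrial respiration more than activated conventional T cells do.

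The sorted cells were gated on a Foxp3 reporter, so a higher Foxp3 signal in Treg follows from the gate. Foxp3 lay between 3.95 and 4.05 (log2 signal) in conventional T cells and between 10.33 and 10.91 in Treg. On the sorted arrays, the 3' minus 5' signal of the Actb control probe sets, a measure of RNA or labelling quality, was 5.87 and 6.17 in activated Treg replicates 1 and 2 and 5.90 in resting Treg replicate 1, against 1.24 to 2.67 on the other 5 arrays. B cell transcripts also differed: the mean of 9 B cell markers was 6.18 to 6.85 in activated Treg, 6.31 to 6.92 in resting Treg and 5.45 to 5.64 in conventional T cells. For 9 markers of dendritic cells and MHC class II, the mean was also higher in Treg, at 5.85 to 7.02 against 5.30 to 5.31. That of 9 CD8 and NK cell markers was lower, at 5.14 to 5.38 in Treg against 5.94 to 6.17 in conventional T cells. Of these 9 markers 8 were lower in resting and 5 in activated Treg, with median differences of -0.21 and -0.018 from conventional T cells. On the ligand arrays the mean of each pair was the same for all 16 pairs at every probe set, within 4.7e-05, so only differences within pairs carry information, and neither the level of a member nor the loss of Nrp1 could be compared between WT and KO.

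In resting Treg against resting conventional T cells, a pair of complex I subunits rose and no member fell. These groups also differ in their CD45RB gate, low against high, which cannot be told apart from cell type. A gene is called here where limma's Benjamini-Hochberg adjusted p, over all genes on the array type, is below 0.05. Called genes made up 5.51% of all genes (3.86% higher and 1.65% lower), against 2 of 82 members (2.44%). The median difference over the members was 0.010 on the log2 scale and 0.0073 over all genes, with 43 members positive and 39 negative.

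Ndufb9, an accessory subunit of the membrane arm of complex I, read 11.73, 11.32 and 11.43 in resting Treg and 10.47 and 10.66 in conventional T cells. Every Treg array was above both conventional T cell arrays, and the difference was 0.93 ± 0.20 (SE, adjusted p = 0.032, limma). Ndufs8, an iron-sulfur subunit of the arm that faces the matrix, read 10.81, 10.77 and 11.05 against 10.01 and 10.23. It differed by 0.75 ± 0.17 (SE, adjusted p = 0.0388, limma), again with no overlap. With so few arrays such a gap is common: 21.6% of all genes and 25 of 82 members lay wholly above conventional T cells. Both calls were lost when the probe sets of each gene were averaged, and leaving out 1 array moved the count of called members between 0 and 4. No member was called without activated Treg replicate 2, resting Treg replicate 1 or 3, or either array of conventional T cells.

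The complexes did not move together in this comparison, as the plot of differences by complex shows. Complex I had 23 of 36 positive members and a median of 0.15, complex IV 10 of 17 and 0.080, and complex V 8 of 17 and -0.052. All 4 subunits of complex II were negative, with a median of -0.61, and 6 of 8 subunits of complex III, with a median of -0.58. None of these 10 was called. Uqcrh, the hinge protein of complex III that helps bind cytochrome c1 to cytochrome c, had the lowest value of all members, -1.58 ± 0.43 (SE, adjusted p = 0.0783, limma). At the other end of complex IV were Cox7c, a small structural subunit, at 0.77 and Cox8a at -0.64, with adjusted p of 0.305 and 0.391.

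**Figure D1:**
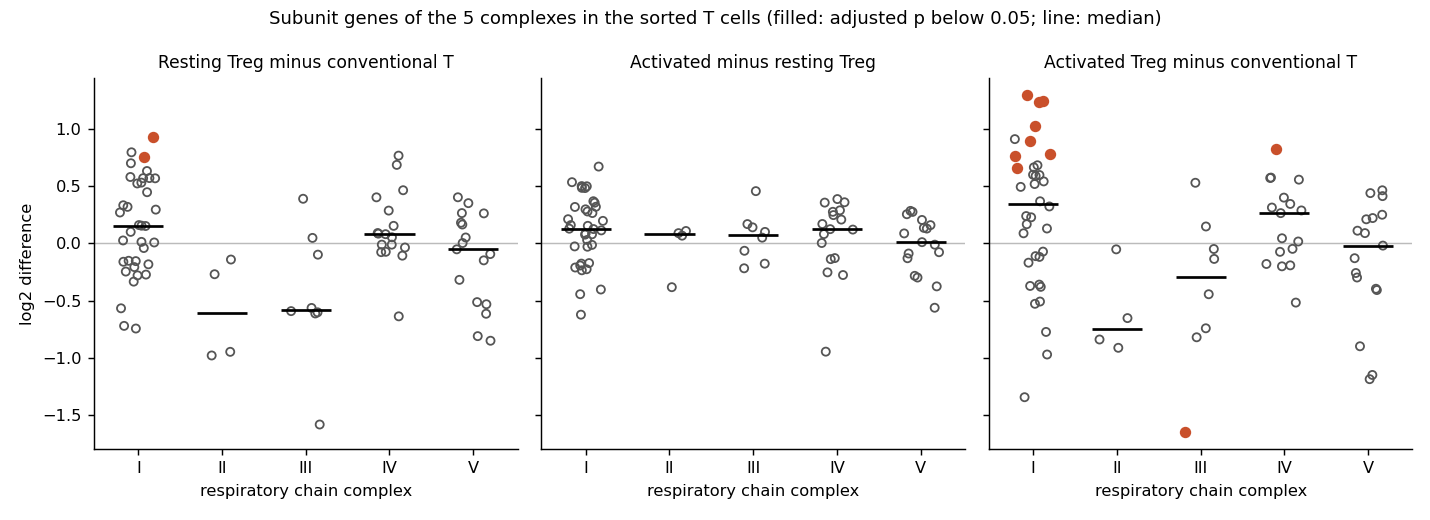
The log2 difference of each of the 82 members (points; vertical axis) by complex (horizontal axis) in the 3 comparisons of sorted T cells, with filled points for called members and a line at the median of each complex. All 4 complex II members lie below 0 in both comparisons with conventional T cells, and the called members are mostly in complex I.

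Between activated and resting Treg no member was called, where 0.742% of all genes were (0.522% higher and 0.22% lower). Members had 11 unadjusted p below 0.05, 9 of them positive, which is 13.4% of the members against 11.5% of all genes. The median over the members was 0.10 and over all genes 0.0035. Ndufs8 had the smallest adjusted p, 0.227, with a difference of 0.48 ± 0.15 (SE). Its arrays did not overlap: 11.26, 11.36 and 11.45 in activated Treg were all above the resting Treg arrays. Ndufa10, an accessory subunit of complex I, had the largest difference, 0.67 ± 0.27 (SE), and Cox7c the lowest, -0.95 ± 0.31 (SE). Groups did not overlap for 13 members that were higher and 5 that were lower after activation, against 6.03% and 6.94% of all genes. Leaving out 1 array moved the members' median between 0.020 and 0.18.

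The largest set of calls came between activated Treg and resting conventional T cells. Cell type, CD45RB gate and activation differ at once in this comparison and cannot be told apart. Here 9 members rose and 1 fell, 12.2% of the members against 9.7% of all genes (5.93% higher and 3.77% lower). Of the 9, 8 belong to complex I: Ndufs8, Ndufb8, Ndufb9, Ndufc2, Ndufa5, Ndufb6, Ndufa12 and Ndufa13. The ninth was Cox6b1, a subunit of complex IV on the side of the intermembrane space. The member that fell was Uqcrh. Both this comparison and the one of resting Treg use the same 2 arrays of conventional T cells.

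Ndufb8, in the membrane arm of complex I, had the largest difference. It read 10.92, 11.11 and 10.44 in activated Treg and 9.48 and 9.59 in conventional T cells, 1.29 ± 0.23 higher (SE, adjusted p = 0.0095, limma). Ndufs8 had the smallest adjusted p, 0.00289, with a difference of 1.23 ± 0.17 (SE), and its resting Treg arrays lay between the other groups. Ndufc2, another membrane arm subunit, read 12.42, 12.29 and 12.22 against 11.14 and 11.43, a difference of 1.02 ± 0.17 (SE, adjusted p = 0.0082, limma). For each of these 3 genes all activated Treg arrays were above both conventional T cell arrays. The same held for 21.4% of all genes and 30 of 82 members, and 19.7% of all genes and 14 members lay wholly below.

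Cox6b1 read 12.80, 12.98 and 12.79 in activated Treg, 12.56, 12.34 and 12.60 in resting Treg and 12.02 and 12.05 in conventional T cells. The difference from conventional T cells was 0.82 ± 0.16 (SE, adjusted p = 0.0143, limma), and the 3 groups did not overlap. Ndufb9 differed by 1.25, Ndufa5 by 0.90, Ndufb6 by 0.78, Ndufa12 by 0.77 and Ndufa13 by 0.65, with adjusted p from 0.0059 to 0.0311. Uqcrh read 9.55, 10.28 and 11.17 in activated Treg against 12.07 and 11.89, a difference of -1.65 ± 0.43 (SE, adjusted p = 0.0492, limma). It kept its call in 6 of 18 alternative settings, while Ndufs8 and Ndufc2 kept theirs in 16 of 18.

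**Figure D2:**
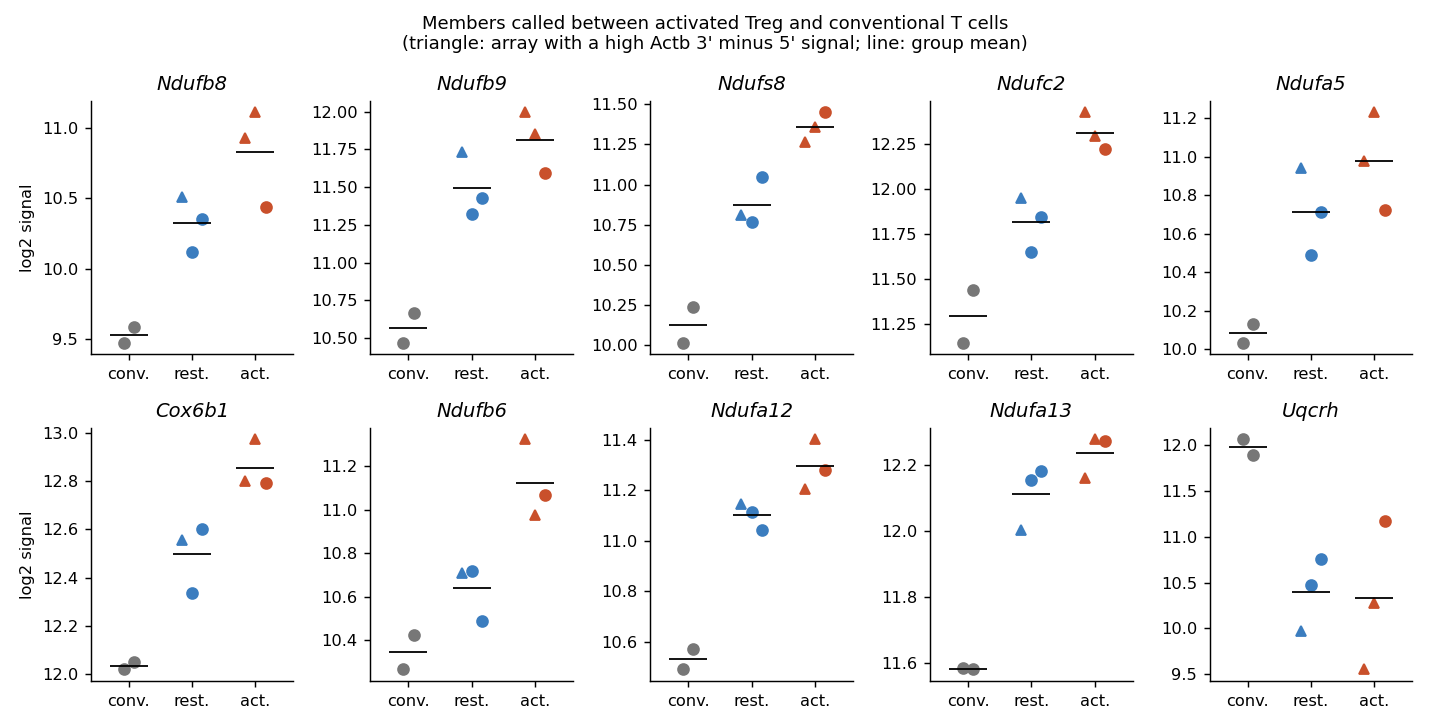
Log2 signal (vertical axes, each with its own range) of the 10 members called between activated Treg and conventional T cells, for each array of conventional T cells (conv.), resting Treg (rest.) and activated Treg (act.), with group means as lines and triangles for the 3 arrays with a high Actb 3' minus 5' signal. The first 9 panels show all activated Treg arrays above both conventional T cell arrays, and Uqcrh shows the reverse, with its lowest values on triangle arrays. Of all genes 21.4% lie wholly above and 19.7% wholly below in this comparison.

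Other probe sets of the same genes did not always repeat these values. The remaining 5 probe sets of Ndufs8 gave differences of 0.30 to 1.17, all positive. The highest had an adjusted p of 0.0116 and the rest of 0.23 to 0.79 (limma, over all probe sets that name 1 gene). Those of Ndufc2 gave 1.11, 0.62 and 0.072, and the second probe set of Uqcrh gave -0.86. By contrast, the other probe sets of Ndufb9 gave -0.10 and 0.061, that of Ndufb8 -0.45, that of Ndufa5 0.063 and that of Ndufb6 0.075. Those of Ndufa12 gave 0.64, -0.29 and -0.42, and that of Cox6b1 gave 0.32. With the mean of all probe sets of a gene, 2 members were called in place of 10, both higher in activated Treg. Without activated Treg replicate 3 there were 19 calls, without activated Treg replicate 2 there were 5, and without conventional T cell replicate 1 or 2 there were 0 and 3. Where 1 array of a group remains, it is assumed to vary like those of the other groups. With array weights, 42 members were called, 26 higher and 16 lower. The share of all genes called is not set beside these alternative counts. They show only how far the calls depend on the setting, and not a trait of the members.

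Some members differed with the quality of the arrays. The 3 arrays with a high Actb 3' minus 5' signal are all of Treg, so this effect is estimated from Treg arrays alone. In a fit with the class of the Actb 3' minus 5' signal as a term beside the groups, added after the data were seen, 16 of 82 members were lower on the 3 arrays of the high class, where 5.85% of all genes were, and 1 member was higher, where 1.75% of all genes were. Of the 82 members 60 were negative, against 49.4% of all genes. These 60 included all 4 of complex II, all 8 of complex III and 15 of 17 of complex V. The 16 included the ATP synthase genes Atp5g2 at -1.94, Atp5b at -1.74 and Atp5e at -1.42, the complex III core subunit Uqcrc1 at -0.91, and Sdhd at -1.16 and Sdha at -0.72. Of the members called between the sorted groups none was called for the class, and Uqcrh was -0.95 with an adjusted p of 0.0594. With the class as a block, 10 members rose and none fell in activated Treg against conventional T cells (9.87% of all genes called): Cox5a, Ndufa8 and Uqcrc2 were called there, and Ndufa5, Ndufb6 and Uqcrh were not. In activated against resting Treg the block gave no called member, where 1.75% of all genes were called. For resting Treg against conventional T cells the block gave 4 calls (8.98% of all genes), Ndufb9, Ndufs8 and Ndufa13 higher and Uqcrh lower, at -1.27. On the 5 arrays of the low class Uqcrh, at -1.37, was the only member called in that comparison, where 5.35% of all genes were.

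**Figure D3:**
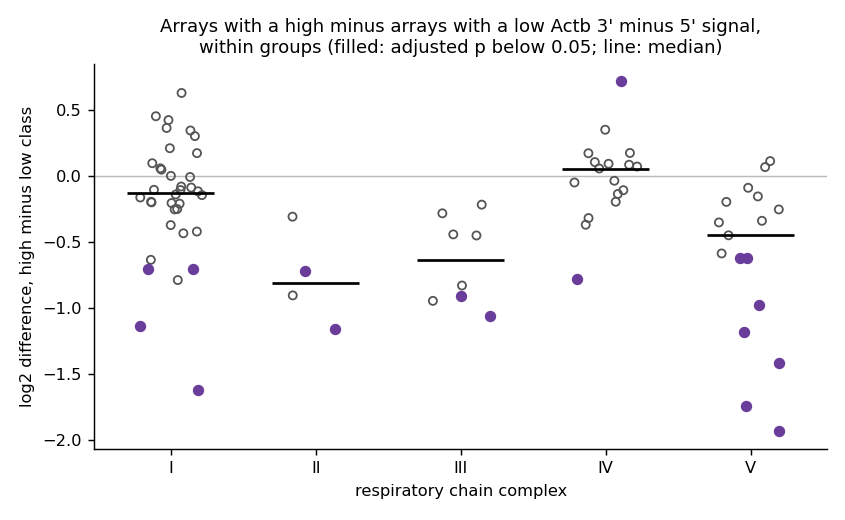
The log2 difference between the 3 arrays with a high and the 5 with a low Actb 3' minus 5' signal, within groups (vertical axis), for each member (points) by complex (horizontal axis), with filled points for an adjusted p below 0.05 and lines at medians. Complexes II, III and V lie mostly below 0, with medians of -0.81, -0.64 and -0.45, while the median of complex IV is 0.055.

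On the arrays of the low class alone, complex II gave other values for activated Treg, which have only 1 array there. Sdhd, a membrane anchor of succinate dehydrogenase, read 7.93 and 8.56 on the activated Treg arrays of the high class and 9.53 on the other one, against 9.59 and 9.58 in conventional T cells. The difference between activated Treg and conventional T cells was -0.91 over all arrays and -0.057 over the 5 arrays of the low class. Sdhc, the other anchor, went from -0.84 to 0.0075, and Sdha, the flavoprotein subunit, from -0.65 to -0.072. Sdhb, the iron-sulfur subunit, was -0.053 over all arrays and 0.21 over the 5. In resting Treg against conventional T cells, with 2 arrays of each in the low class, both anchors stayed negative without a call: Sdhc was -0.95 over all arrays and -0.77 over the 5, and Sdhd -0.98 and -0.64. Sdha went from -0.27 to -0.078 and Sdhb from -0.14 to -0.065. Other probe sets varied over all arrays. In resting and activated Treg against conventional T cells, the second of Sdhd gave -0.072 and 0.17, and that of Sdhc -0.53 and -0.24. The other probe sets of Sdha ran from -2.06 to 0.28 in resting and from -1.47 to 0.58 in activated Treg. On the ligand arrays Sdhd is represented by the counterpart of its second probe set. Of complex I, Ndufs8 was 1.33 higher in the low-class array of activated Treg than in conventional T cells (adjusted p = 0.0478, limma) and was the only member called there, where 4.8% of all genes were. Uqcrh was -0.81 in the same comparison (adjusted p = 0.112). Both p-values set 1 array against 2, with the spread supplied by the other groups.

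Other genes of the pathway were called in both directions between activated Treg and conventional T cells, where 5.93% of all genes rose and 3.77% fell. Of 47 large-subunit proteins of the mitochondrial ribosome 5 rose, among them Mrpl13 by 1.54 and Mrpl1 by 1.25, and 1 fell, Mrpl38 at -0.67. Of 19 electron carriers and feeders 1 rose and 1 fell, Coq4 by 0.63 and Coq8b at -0.77. Of 43 assembly factors, which help build the complexes, 1 rose and 2 fell: Ndufaf7 by 1.29, against Uqcc3 at -1.08 and Cox16 at -0.88. Of 22 genes of the tricarboxylic acid cycle and pyruvate dehydrogenase none rose and 2 fell, Idh2 at -2.45 and the pyruvate dehydrogenase kinase Pdk1 at -1.76. Of 23 regulators of mitochondrial biogenesis 2 fell, Ppargc1b at -1.34 and the mitochondrial transcription factor Tfb2m at -0.76. B cell transcripts moved with the same groups: 4 of 9 B cell markers rose in resting Treg against conventional T cells and 3 in activated Treg. Of the CD8 and NK cell markers Klrd1 fell in both, at -4.73 and -6.69, and Prf1 in activated Treg, at -1.65, while no dendritic cell or MHC class II marker was called. Among 18 myeloid markers Lyz1 rose in activated Treg and Fcgr3 fell in both. The mean of these 18 was 5.43 to 6.93 in activated Treg, 5.24 to 5.78 in resting Treg and 5.25 to 5.31 in conventional T cells. The part of these cell types in the members' values was not tested. In such bulk samples, fewer cells of a type and less RNA per cell cannot be told apart.

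Many promoters of the members share motifs of factors known for respiratory chain genes. RefSeq gave a promoter for 69 of the 85 member symbols (build GRCm38.p6, 250 bases before to 50 after the start), and 3 motifs were searched on both strands: NRF1 (as in the Sdhd promoter shown, with any base at the sixth position), the core bound by ETS factors such as GABP as CCGGAAG, and YY1 as AAGATGGC. The ETS core ends in AAG and so can overlap a YY1 motif. At least 1 motif was found in 38 of 69 members (55.1%), against 16.4% of all 27025 genes with a promoter. The NRF1 motif was in 24.6% of members and 5.19% of all genes, the ETS core in 24.6% and 9.93%, and YY1 in 14.5% and 3.19%. Of the 8 complex I and IV members called higher in activated Treg that have a promoter, 5 held a motif. The 200 bases before the start are shown for members the comparisons turn on, 5' to 3' on the gene's strand, with motif letters in capitals.
Ndufs8, chr19:3912775-3912974, minus strand: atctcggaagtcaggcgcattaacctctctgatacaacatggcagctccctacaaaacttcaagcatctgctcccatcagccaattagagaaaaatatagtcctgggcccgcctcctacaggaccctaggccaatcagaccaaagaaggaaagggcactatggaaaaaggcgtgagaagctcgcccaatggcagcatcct
Cox6b1, chr7:30626115-30626314, minus strand: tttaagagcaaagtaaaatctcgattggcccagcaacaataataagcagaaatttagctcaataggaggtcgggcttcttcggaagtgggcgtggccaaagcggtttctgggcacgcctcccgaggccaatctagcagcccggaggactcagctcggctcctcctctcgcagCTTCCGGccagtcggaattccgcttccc
Uqcrh, chr4:116075071-116075270, minus strand: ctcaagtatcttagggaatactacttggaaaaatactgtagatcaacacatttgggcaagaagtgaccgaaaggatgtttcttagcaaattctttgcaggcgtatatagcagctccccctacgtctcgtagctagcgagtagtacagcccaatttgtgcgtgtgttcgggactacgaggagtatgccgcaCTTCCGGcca
Sdhd, chr9:50603850-50604049, minus strand: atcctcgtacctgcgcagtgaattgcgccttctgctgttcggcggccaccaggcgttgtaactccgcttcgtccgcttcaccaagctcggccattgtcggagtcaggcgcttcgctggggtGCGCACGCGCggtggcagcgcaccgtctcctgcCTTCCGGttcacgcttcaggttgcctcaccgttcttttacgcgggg
Uqcrfs1, chr13:30545317-30545516, minus strand: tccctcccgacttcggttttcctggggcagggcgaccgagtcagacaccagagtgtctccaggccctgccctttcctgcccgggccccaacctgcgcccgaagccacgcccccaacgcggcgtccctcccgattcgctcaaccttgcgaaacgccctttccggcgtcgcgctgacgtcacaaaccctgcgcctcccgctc

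The ETS core lies 28 bases before the start in Cox6b1 and 10 before it in Uqcrh, in both read on the opposite strand. Sdhd has the ETS core 46 bases before the start and an NRF1 motif 79 before it. In Ndufs8 the ETS core lies 15 bases after the start, outside the stretch shown, and in Uqcrfs1 these letters were not in the window. Among those shown, promoters of members that rose and of the member that fell both hold the ETS core, and a match is a description of letters only.

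In WT Treg a pair of members fell with Sema4a-Ig and none rose. The calls were 2 of 80 members (2.5%), against 5.79% of all genes (2.91% higher and 2.88% lower). The median pair difference was -0.022 over the members and -0.014 over all genes, with 50 of 80 members negative (62.5%, against 53.9% of all genes). No member differed by as much as 0.5 on the log2 scale.

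Uqcrfs1, the Rieske iron-sulfur protein of complex III, was lower with Sema4a-Ig in all 8 WT pairs. The differences in pairs 1 to 8 were -0.55, -0.49, -0.63, -0.23, -0.070, -0.16, -0.35 and -0.32, with a mean of -0.35 ± 0.094 (SE, adjusted p = 0.0335, limma). In KO pairs the lowest, median and highest differences were -0.82, -0.084 and 0.12, with 6 of 8 negative and a mean of -0.21 ± 0.094 (SE, adjusted p = 0.467). KO minus WT was 0.14 ± 0.13 (SE, adjusted p = 0.937), so a difference between genotypes was not shown.

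Cox6b2, the testis form of a complex IV subunit, was the other call, at a low signal of 4.51 on average. Its WT pairs ran from -0.98 through a median of -0.30 to -0.014, all 8 negative, with a mean of -0.33 ± 0.092 (SE, adjusted p = 0.0381, limma). Its KO pairs had a median of -0.068 and 5 of 8 negative, and KO minus WT was 0.33 ± 0.13 (SE, adjusted p = 0.791). Without the pair whose genotype labels disagree neither was called, with Uqcrfs1 at -0.33 and Cox6b2 at -0.33. Over 18 alternatives Uqcrfs1 ranged from -0.39 to -0.28 and kept its call in 10, and Cox6b2 ranged from -0.37 to -0.24 and kept it in 8. Without pair 1, 2, 3 or 7 no member was called, and without pair 5 there were 3.

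Just outside the threshold in WT stood Cox7a2l, a factor for supercomplexes of complexes III and IV, and Ndufa10. Cox7a2l was higher in all 8 WT pairs, from 0.038 through a median of 0.16 to 0.45, with a mean of 0.22 ± 0.069 (SE, adjusted p = 0.0658, limma). It was positive in 5 of 8 KO pairs, with a mean of 0.10. Ndufa10 had a mean of -0.35 ± 0.11 (SE, adjusted p = 0.0704, limma), with pair 1 at -1.35 and a median of -0.15.

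**Figure D4:**
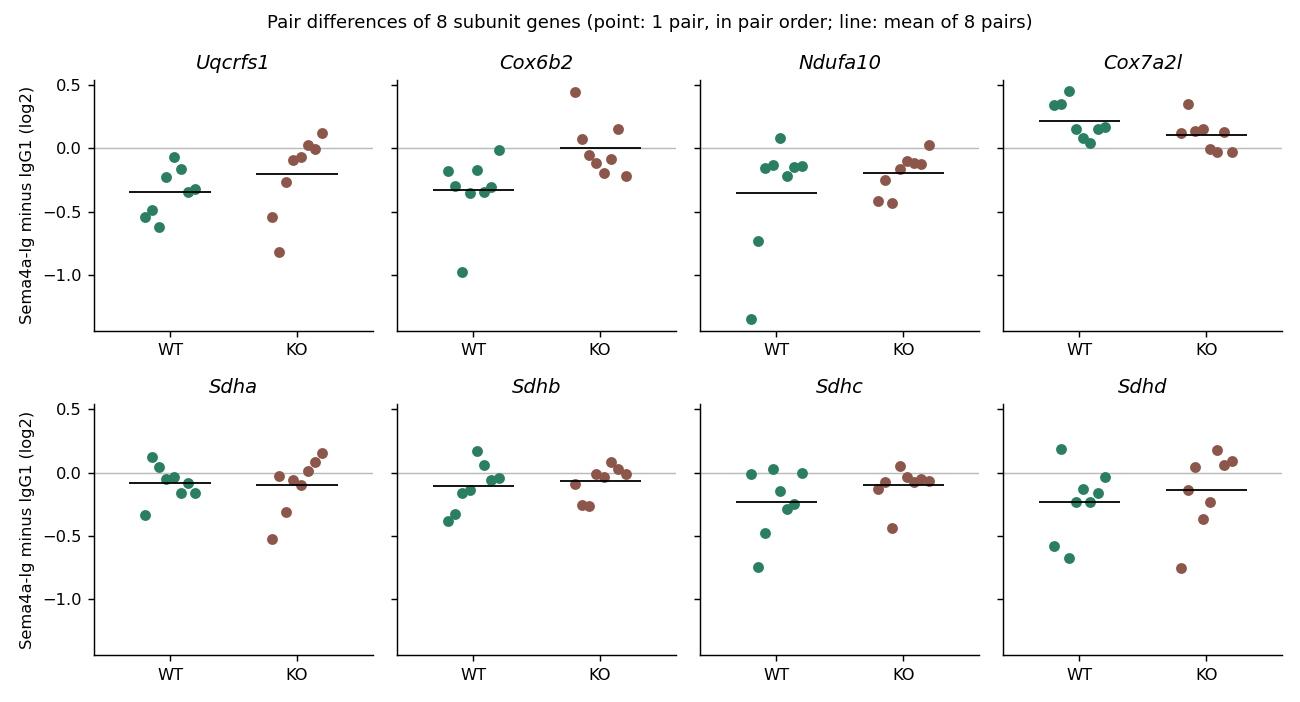
Sema4a-Ig minus IgG1 differences (log2, vertical axis) of 8 members in the 8 WT and 8 KO pairs (points, in pair order), with lines at the means. Uqcrfs1 and Cox6b2 are below 0 and Cox7a2l above 0 in all 8 WT pairs, and the lowest Ndufa10 point is WT pair 1 at -1.35.

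Complex II was negative in both genotypes without a call. The WT means were -0.24 for Sdhc, -0.23 for Sdhd, -0.11 for Sdhb and -0.082 for Sdha, and the KO means -0.10, -0.14, -0.069 and -0.097. Sdhc had the smallest adjusted p of the 4 in WT, 0.0969, with 7 of 8 pairs negative. Complex III had 6 of 7 negative members in WT and 5 of 7 in KO, complex IV 12 of 17 in both, complex I 20 and 27 of 35, and complex V 8 and 13 of 17.

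In KO Treg no member was called, as was the case for all genes (0%), and 2 members had an unadjusted p below 0.05, both negative (2.5%, against 10.5% of all genes). Of the 80 members 61 were negative (76.2%, against 55% of all genes), with a median of -0.052 against -0.016. The smallest adjusted p was 0.431, for Ndufb5 of complex I, at -0.18 and negative in all 8 pairs. For the difference between genotypes no member and no other gene was called (0%), and 3 members had an unadjusted p below 0.05 (3.75%, against 5.94% of all genes). Members negative in both genotypes were 43 of 80 (53.8%, against 36.9% of all genes).

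Pairs differed in how their members moved. The median over the members was between -0.16 and 0.070 in WT pairs and between -0.10 and 0.011 in KO pairs, and 5 of 8 WT and 6 of 8 KO pairs were negative. WT pair 1 was lowest, with 56 of 80 members negative, and WT pair 6 highest, with 24.

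**Figure D5:**
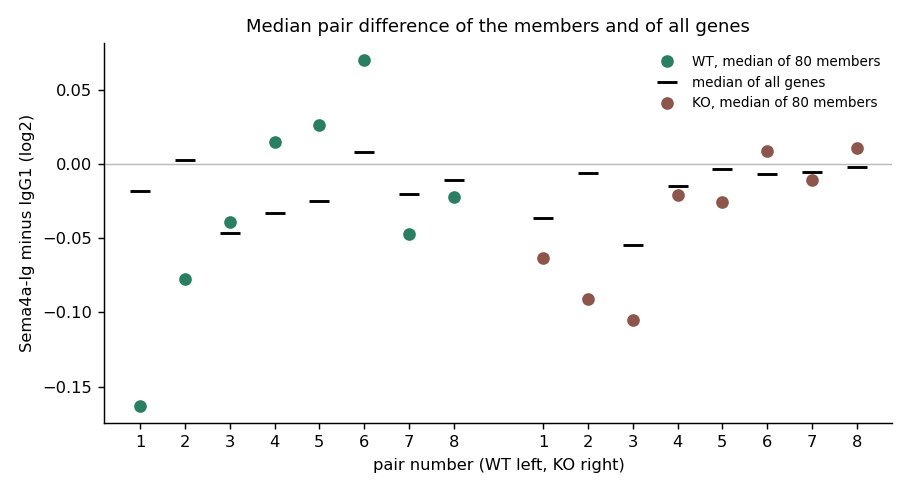
Median Sema4a-Ig minus IgG1 difference (log2, vertical axis) over the 80 members (points) and over all genes (black dashes) in each WT and KO pair (horizontal axis). The members' medians spread from -0.16 in WT pair 1 to 0.070 in WT pair 6, and those of all genes stay between -0.055 and 0.0079.

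Lists of genes around the chain held calls in WT, where 2.88% of all genes fell and 53.9% were negative. Of 40 assembly factors 6 fell and none rose, with 33 negative and a median of -0.19. They included Nubpl, which brings iron-sulfur clusters to complex I, at -0.46, and Ndufaf6 and Ndufaf4 at -0.40 and -0.37. Of 16 electron carriers and feeders 4 fell and all 16 were negative: Coq7 and Coq4 of ubiquinone synthesis at -0.63 and -0.45, Dhodh at -0.44 and cytochrome c, Cycs, at -0.30. Of 46 large-subunit proteins of the mitochondrial ribosome 4 fell, among them Mrpl1 at -0.42 and Mrpl12 at -0.33, and 43 were negative. Of 20 biogenesis regulators 1 fell, Pprc1 at -0.37, with 17 negative, and of 21 genes of the tricarboxylic acid cycle none was called. In KO none of these lists had a call, but no gene at all was called there or for KO minus WT (0%). The lack of calls is therefore not particular to these lists. Negative in KO were 34 of 40 assembly factors, 13 of 16 carriers and 45 of 46 ribosomal genes, against 55% of all genes.

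Myeloid transcripts moved with the ligand in WT. Of 18 myeloid markers 3 rose, Lyz2 by 0.81, Tyrobp by 0.39 and Ctss by 0.37, where 2.91% of all genes rose, and 14 were positive. In KO 7 were positive and none was called, as was the case for all genes (0%). For KO minus WT no myeloid marker and no other gene was called, so a difference between genotypes was not shown. Within WT pairs the mean difference of these markers ran from -0.23 to 0.49 and was positive in 6 of 8. Within KO pairs it ran from -0.20 to 0.34 and was positive in 4 of 8. Of 8 Treg markers 2 rose in WT, Nrp1 and Ikzf2, and 6 were positive. Among 9 B cell markers Cd79b rose, by 0.35, and 6 were positive. Among 10 CD8 and NK cell markers Nkg7 fell, at -0.52, and 8 were negative. The erythroid factor Klf1 fell, at -0.30, while 4 of 6 erythroid markers were positive. With the myeloid markers' difference as a covariate no member was called, and Uqcrfs1 was -0.31 (adjusted p = 0.112, limma) and Cox6b2 -0.30 (adjusted p = 0.118), against -0.35 and -0.33 without it.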

How the data were processed

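The authors deposited log2 signals for each probe set, produced by RMA in Partek 6.6 according to the submitters' processing notes. Other steps before deposit: not given in the sources used here. No background correction or normalization was added. Probe sets were named through the platform annotation, those naming several genes were left out, and 1 probe set per gene was kept by its mean over the arrays of that type. Differences were tested with limma 3.58.1 in R 4.3.3 (lmFit and eBayes), with Benjamini-Hochberg adjustment over all genes. The sorted arrays were fitted together (5 residual degrees of freedom). The Sema4a-Ig minus IgG1 differences of the 16 pairs were fitted with 1 mean per genotype (14 residual degrees of freedom). Pairs come from neighbouring codes in the titles and from the equal pair means. The number of arrays limits the precision. Both fits were run on simulated data with independent noise for each gene. No array quality effect was simulated, so this does not cover the Actb class.

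Members, gene lists and tests were chosen with earlier results of these data known. In each comparison the named members are up to 12 called ones in each direction, the highest and lowest of each complex, the Sdh genes, and paralogous subunits. Other members named in the text were chosen after their values were seen. Alternatives covered low signals, probe sets, adjustment, eBayes settings, centring, quantile normalization, array weights, the Actb class, covariates, the pairing and each left-out array or pair. Differences over all probe sets of a gene and the class effect were added after seeing the data.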

Additional observations from a re-analysis of the deposited data

Results flagged for a closer look

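Among 57 groups of 8 pair differences (the named members and the members' median), 8 held a pair far from the other 7, by a gap over 0.526 of the group's range. Chance flags about 1 in 20 such groups. In WT these were Atp5h in pair 1 (-0.18), Cox4i1 in pair 2 (-0.64) and Cox6b2 in pair 3 (-0.98), each the lowest. In KO they were Cox6a2 (-0.45), Cox8c (-0.45) and Ndufb10 (0.41) in pair 1, Sdhc in pair 3 (-0.44) and Atp5j in pair 6 (0.20). WT pair 2 is the one whose Sema4a-Ig array has conflicting genotype labels. No member moved one way in every WT pair and the other way in every KO pair.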

How the results depend on the processing

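None of the 14 calls of members changed sign under any alternative run, but none kept its call in all of them. Called members in resting Treg minus conventional T cells numbered 2, and 0 with adjustment over all probe sets, 16 with array weights, 4 with the Actb class as a block and 1 on the 5 arrays of the low class. Leaving out 1 array gave 0 to 4. Array weights gave 1 call in place of 0 in activated minus resting Treg. The 10 calls in activated Treg minus conventional T cells became 2 with the mean of all probe sets, 42 with array weights, 1 on the arrays of the low class, where activated Treg has 1 array, and 0 to 19 leaving out 1 array. A lone array is assumed to vary like those of the other groups. The members' median there went from 0.10 to 0.26 with the class as a block and 0.27 on the arrays of the low class. In the WT pairs the 2 calls became 4 among genes above the 40th percentile, 1 with adjustment over all probe sets and 0 with trend and robust eBayes, with the myeloid covariate or without the pair whose genotype labels disagree. Leaving out 1 pair gave 0 to 3. Both called members stayed between -0.39 and -0.24 in every alternative run. With no replicate block, that is without the pairing, 15 members were called in WT, 5 in KO and 2 for KO minus WT. For most of these alternatives the share of all genes called is not given, so the counts describe only how the calls depend on the setting. The causes were not tested.

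Of the 3336 values of named members under alternatives, 147 had a changed sign, all of members without a call, and 76 of these came from leaving out 1 array or pair. With the mean of all probe sets, Cox7a2 -0.028 and Cox7a2l -0.13 had a changed sign in resting Treg minus conventional T cells. So had Atp5c1 -0.13, Cox8a -0.088 and Sdha 0.16 in activated minus resting Treg. So had Cox8c -0.11 in activated Treg minus conventional T cells. So had Cox6a1 -0.019 in the WT pairs. So had Atp5g1 -0.061, Cox6b1 0.00034, Cox7a2 -0.017 and Sdha 0.012 in KO minus WT. With arrays centred, Cox6a2 0.026 and Cox8c 0.0014 had a changed sign in resting Treg minus conventional T cells. So had Cox6b2 -0.076 and Sdhd -0.012 in activated minus resting Treg. So had Cox4i1 -0.025 in activated Treg minus conventional T cells. With quantile normalization, Cox6a2 0.022 had a changed sign in resting Treg minus conventional T cells. So had Cox6b2 -0.057 in activated minus resting Treg. So had Atp5g3 0.072 in activated Treg minus conventional T cells. With array weights, Atp5g3 -0.055, Cox8a -0.25, Sdhb -0.030, Sdhc -0.16 and Sdhd -0.10 had a changed sign in activated minus resting Treg. So had Cox6b2 0.065, Cox7b2 0.013 and Ndufa4 -0.067 in activated Treg minus conventional T cells. So had Atp5g3 0.0092 in the KO pairs. So had Atp5g1 -0.018 and Sdha 0.065 in KO minus WT. With the Actb class as a block, Atp5g3 0.058 and Cox4i2 -0.036 had a changed sign in resting Treg minus conventional T cells. So had Atp5g2 0.35, Cox6b2 -0.054 and Uqcrc1 0.086 in activated minus resting Treg. So had Atp5g1 0.13, Atp5g2 0.14, Atp5g3 0.39, Cox4i1 -0.040, Cox6a2 -0.21, Cox8a 0.0033, Cox8c -0.025 and Sdhb 0.15 in activated Treg minus conventional T cells. On the 5 arrays of the low class, Atp5g3 0.0096, Cox4i2 -0.011 and Cox8b -0.029 had a changed sign in resting Treg minus conventional T cells. So had Atp5g2 0.50, Cox6a2 -0.16, Cox6b2 -0.17, Ndufa4l2 -0.065, Ndufa6 0.18, Sdha 0.0060 and Uqcrc1 0.29 in activated minus resting Treg. So had Atp5g1 0.17, Atp5g2 0.25, Atp5g3 0.49, Cox6a2 -0.34, Cox8c -0.054, Sdhb 0.21 and Sdhc 0.0075 in activated Treg minus conventional T cells. With pair differences centred, Cox6b2 0.0020 had a changed sign in the KO pairs. With the Actb covariate, Cox6b2 0.0046 had a changed sign in the KO pairs. With the myeloid covariate, Ndufa4l2 0.0051 had a changed sign in the KO pairs. So had Atp5g1 -0.0014 and Cox6b1 0.030 in KO minus WT. Without the pair whose genotype labels disagree, Atp5g2 0.053, Atp5g3 -0.0046 and Uqcrc2 -0.057 had a changed sign in the WT pairs. So had Cox4i1 -0.041, Cox6b1 0.029 and Sdha 0.014 in KO minus WT.

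Leaving out 1 array or pair at a time gave, in resting Treg minus conventional T cells, Atp5g3 -0.23 to 0.0096, Cox4i2 -0.011 to 0.15, Cox6a2 -0.18 to 0.11, Cox7a2l -0.0028 to 0.17, Cox7b2 -0.0032 to 0.18, Cox8b -0.029 to 0.13 and Cox8c -0.18 to 0.11. The ranges for activated minus resting Treg were Atp5g2 -0.996 to 0.15, Atp5g3 -0.13 to 0.30, Cox6b2 -0.10 to 0.099, Cox8a -0.15 to 0.35, Sdhb -0.041 to 0.17, Sdhc -0.32 to 0.45 and Sdhd -0.36 to 0.44. The ranges for activated Treg minus conventional T cells were Atp5g3 -0.28 to 0.15, Cox4i1 -0.084 to 0.17, Cox6b2 -0.18 to 0.022, Cox7b2 -0.14 to 0.044, Cox8c -0.098 to 0.19, Ndufa4 -0.023 to 0.20 and Sdhb -0.18 to 0.031. The ranges for the WT pairs were Atp5g2 -0.062 to 0.053, Atp5g3 -0.0046 to 0.057, Cox6b1 -0.092 to 0.030, Cox7a1 -0.090 to 0.017 and Uqcrc2 -0.057 to 0.16. The ranges for KO minus WT were Atp5g1 -0.0038 to 0.074, Atp5g2 -0.11 to 0.0023, Atp5g3 -0.078 to 0.0046, Cox4i1 -0.041 to 0.060, Cox6b1 -0.092 to 0.029, Cox8a -0.068 to 0.019, Ndufa4 -0.038 to 0.036, Sdha -0.051 to 0.046 and Uqcrq -0.14 to 0.033. The ranges for the KO pairs were Atp5g3 -0.057 to 0.026, Atp5j -0.022 to 0.015, Cox6a2 -0.083 to 0.0092, Cox6b2 -0.064 to 0.030, Cox8c -0.0051 to 0.10 and Ndufa4l2 -0.14 to 0.046.

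The 8 sorted arrays, with 2 of conventional T cells, and the removal of pair means before deposit limit what can be said of single members. Members with a low signal, such as Cox4i2, Cox7a1, Cox7b2 and Ndufa4l2, are below the 40th percentile of probe sets on both array types.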
